A study of Homo sapiens with 14 samples.

Results

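MV4;11 cells in which MYC was targeted with guide 5 were compared with MV4;11 cells in which MYC was targeted with guide 1. The comparison takes 4 of the 14 libraries of the series: the 2 labelled sgcMyc_5 and the 2 labelled sgcMyc_1, chosen by those labels and not by any measured value. MV4;11, a human myelomonocytic leukaemia line, has a KMT2A-AFF1 gene fusion and an internal tandem duplication in FLT3. Both groups are described as cMyc knockouts made by independent single guide RNAs, and both received doxycycline at 1 µg/ml for 4 days. The 2 control libraries labelled sgEV had the same cell line and the same doxycycline. They stay out of the contrast and are given beside it as the level without a MYC guide. The sources used here do not spell out sgEV, the sequence or cut site of either guide, the form of Cas9 or what doxycycline drives. Nor is it stated whether a group is a pool of edited cells or 1 clone. Separate cultures are not mentioned for the libraries within a group. The p-values therefore reflect variation between libraries within a group, which could be technical only. "Guide 1" and "guide 5" stand for the libraries so labelled throughout.

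MYC is a transcription factor that binds DNA as a dimer with MAX, at the E-box sequence CACGTG and its variants, and it drives genes of ribosome assembly, nucleotide synthesis and metabolism. In myeloid leukaemia cells MYC is also known for holding back maturation. The comparison asks where cells with different guides to the same gene differ. Nothing in the files measures the edits themselves.

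Total RNA was sequenced to between 13313100 and 15043400 gene counts a library, as 6-digit roundings. Spike-in RNA took 1.06% to 1.24% of all counts and was lowest in guide 5 library 1. Transcripts of the mitochondrial genome took 2.41% to 2.47% of gene counts with sgEV, 3.14% to 3.18% with guide 1 and 3.16% to 3.44% with guide 5. The guide 5 libraries differed from each other more than the other pairs did. Their chi-square per degree of freedom over genes with at least 20 counts was 5.47, against 1.87 for guide 1 and 1.47 for sgEV. The log2 ratio of guide 5 library 2 to library 1 also moved with transcript length. Its median was 0.17 over 297 genes of up to 1000 bases and -0.16 over 798 genes longer than 8000 bases. Spearman's rho between that ratio and transcript length was -0.56 across 9345 genes, against -0.27 for the guide 1 pair and -0.08 for the sgEV pair. These are descriptions across genes, which are not independent, and the genes of a pair share the same 2 libraries. Of the 17 general myelomonocytic markers, all were measured, among them PTPRC, CD33, CD4, FLT3, HOXA9, MEIS1, SPI1 and CEBPA, and none differed between the guides by edgeR. The smallest adjusted p was 0.216, for CD38.

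**Figure D1:**
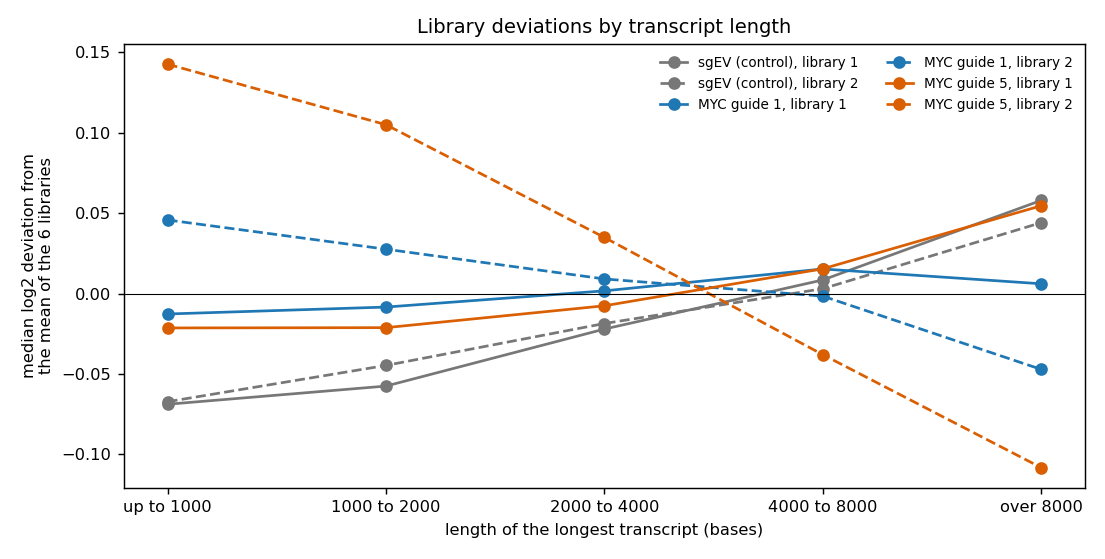
Median log2 deviation of each library from the mean of the 6 libraries (vertical axis) in 5 classes of transcript length in bases (horizontal axis), over genes above 8 CPM. Guide 5 library 2 (broken orange line) runs from 0.14 in the shortest class to -0.11 in the longest, and guide 5 library 1 from -0.02 to 0.05.

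No difference in MYC itself was called between the guides. Its level was 866 and 872 CPM (counts scaled to library size) in the guide 1 libraries and 818 and 822 CPM in the guide 5 libraries, against 658 and 660.4 CPM with sgEV. Both guide 5 values lay under both guide 1 values, and all 4 lay above sgEV. Against sgEV the log2 values were 0.40 with guide 1 (adjusted p 2.05e-05) and 0.32 with guide 5 (adjusted p 0.000156). The log2 difference, guide 5 minus guide 1, was -0.08 ± 0.05 (SE), with a 95% interval of -0.20 to 0.04 and an adjusted p of 0.860 (edgeR's quasi-likelihood test with Benjamini-Hochberg adjustment, as for every adjusted p here). The transcript can persist after a gene is cut, and the guide positions are unknown, so the MYC level is no check of either label. EZH2, the other gene the series depletes, stood at 46.8 and 47.1 CPM with guide 1 and at 48.8 and 48.7 CPM with guide 5 (log2 difference 0.06, adjusted p 0.940).

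The MYC-MAX network was measured in 11 genes, and none passed the test between the guides. The members other than MYC and MYCL had log2 differences from -0.10 (MXI1, which pairs with MAX against MYC) to 0.12 (MXD4, of the same family). MAX, the shared partner, differed by 0.02. MYCL, the MYC paralog, was the member farthest from 0. It gave 4.41 and 3.47 CPM with guide 1, 2.41 and 2.38 CPM with guide 5 and 1.42 and 1.499 CPM with sgEV. The guide groups did not overlap, but the log2 difference of -0.71 had an adjusted p of 0.559. Over all genes, guide 5 lay below guide 1 without overlap in 19.3%. Of 12 tested neighbours of MYC on its chromosome, none passed, and their median log2 difference was -0.00054. The noncoding gene PVT1, which lies beside MYC, gave -0.23 with an adjusted p of 0.860.

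Over all 13633 genes tested, the guides differed in 21. With guide 5, 6 genes were higher (0.0440% of genes tested) and 15 were lower (0.110%). At least 2-fold differences were called in 3 genes higher and 5 lower. The same libraries, each set against the 2 sgEV libraries, gave far longer lists. With guide 1, 2255 of 13948 genes were higher than sgEV (16.2%) and 2233 were lower (16.0%). With guide 5, 2192 were higher (15.7%) and 2162 were lower (15.5%). Both of those comparisons share the sgEV libraries, so their values are only set side by side here.

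Most genes were measured closely enough to bound the difference. The 95% interval lay inside 1.25-fold for 7038 genes (51.6%), inside 1.5-fold for 10067 (73.8%) and inside 2-fold for 11730 (86.0%). The median log2 difference over all genes was 0.0022, and the 5th and 95th percentiles were -0.36 and 0.33. An unadjusted p under 0.05 was found for 401 genes higher and 517 lower. Groups that do not overlap are common with 2 libraries each: both guide 5 libraries lay above both guide 1 libraries in 2345 genes (17.2%) and below them in 2637 (19.3%). The count of called genes turned on single libraries. Leaving out guide 1 library 1 gave 10 higher and 7 lower, and leaving out guide 1 library 2 gave 2 higher and 3 lower. Leaving out guide 5 library 1 gave 482 higher and 551 lower, and leaving out guide 5 library 2 gave 212 higher and 274 lower. In those last fits the spread comes from the close guide 1 pair alone, and the lone guide 5 library is assumed to vary alike. Scaling to the spike-ins left 3 higher and 4 lower, which moves the share of higher calls from 28.6% to 42.9%.

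**Figure D2:**
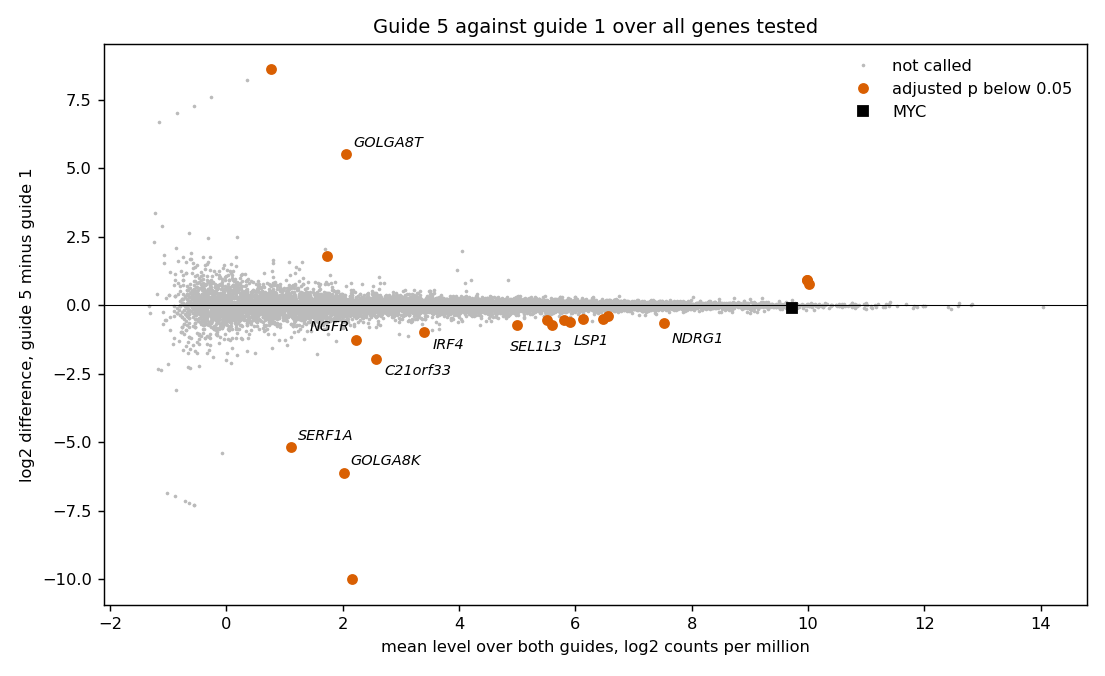
Log2 difference, guide 5 minus guide 1 (vertical axis), against the mean level over both guides in log2 CPM (horizontal axis) for each of 13633 genes. The 21 genes with an adjusted p below 0.05 are orange, and MYC (black square) lies at -0.08; apart from genes of copy families and clones, the called genes lie below 0.

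The 21 called genes fall into unequal kinds. For 12 of them the counting itself leaves the value uncertain, because the gene has near-identical copies, carries only a clone name or is a read-through of neighbouring genes. All 6 higher genes and 6 of the 15 lower genes are of this kind. The other 9 genes are lower with guide 5. They are NDRG1, LSP1, SEL1L3, IRF4, IGF1, MPEG1, MYBPH, NGFR and P4HA1. MPEG1 falls outside the rule for named genes and is named after its values were seen. The lack of overlap between the libraries follows from how these genes were picked and adds nothing to the test. Their shared direction is what was left once the 12 were set aside, and it was not tested.

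NDRG1 had the smallest p of the 9. It encodes a stress-responsive protein and is known both as a gene that MYC represses and as a gene that hypoxia raises. Its level was 229.7 and 224 CPM with guide 1, 142 and 145 CPM with guide 5, and 235 and 229 CPM with sgEV. The guide 1 libraries thus lay at the sgEV level, and the guide 5 libraries lay under both. NDRG1 fell by 0.66 on the log2 scale from guide 1 to guide 5 (SE 0.05, adjusted p 0.00211), to 63.3% of the guide 1 level. Against sgEV it changed by -0.03 with guide 1 (adjusted p 0.609) and by -0.70 with guide 5 (adjusted p 2.36e-07).

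P4HA1, an enzyme subunit that hydroxylates proline in collagen and a known hypoxia-induced gene, was lower with both guides than with sgEV and lower still with guide 5. The sgEV libraries gave 134 and 134 CPM, the guide 1 libraries 107 and 107 CPM and the guide 5 libraries 79.4 and 82.4 CPM. The 3 groups did not overlap. P4HA1 differed between the guides by -0.40 ± 0.06 on the log2 scale (adjusted p 0.0460), to 75.7% of guide 1.

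IRF4, LSP1 and MPEG1, genes of immune cells, were raised with guide 1 and lay at the control level with guide 5. IRF4, a transcription factor of lymphocytes and dendritic cells, gave 13.5 and 14.5 CPM with guide 1, 7.03 and 7.06 CPM with guide 5, and 6.90 and 6.52 CPM with sgEV. Its log2 difference between the guides was -0.99 ± 0.12 (adjusted p 0.0233), or 50.5% of guide 1. LSP1, an actin-binding protein of leukocytes, gave 73.2 and 71.6 CPM with guide 1 against 46.7 and 48.4 CPM with guide 5 and 49.1 and 46.8 CPM with sgEV. LSP1 differed by -0.60 ± 0.06 (adjusted p 0.0140). MPEG1, a pore-forming protein of macrophages, gave 103 and 104 CPM with guide 1, 77.2 and 70.6 CPM with guide 5 and 70.9 and 70.4 CPM with sgEV, a log2 difference of -0.49 ± 0.07 (adjusted p 0.0338). Against sgEV, the log2 values for guide 1 and guide 5 were 1.06 and 0.07 for IRF4, 0.59 and -0.01 for LSP1, and 0.55 and 0.07 for MPEG1. The guide 1 values passed the test and the guide 5 values did not (adjusted p 0.754, 0.910 and 0.450).

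NGFR, the low-affinity neurotrophin receptor, had the largest relative difference of the 9. It gave 6.61 and 6.68 CPM with guide 1, 2.91 and 2.59 CPM with guide 5 and 1.87 and 1.65 CPM with sgEV, from 96 and 99.98 estimated counts with guide 1 and 41.0 and 36.0 with guide 5. The log2 difference was -1.27 ± 0.18 (adjusted p 0.0397). SEL1L3, a membrane protein gene, gave 38.4 and 41.7 CPM with guide 1, 25.2 and 23.0 CPM with guide 5 and 29.8 and 28.5 CPM with sgEV. Guide 1 lay above sgEV (log2 0.46, adjusted p 0.000783) and guide 5 below it (log2 -0.28, adjusted p 0.0271), and the guides differed by -0.73 ± 0.09 (adjusted p 0.0200). MYBPH, a myosin-binding protein, gave 69.8 and 63.3 CPM with guide 1, 44.5 and 46.5 CPM with guide 5 and 49.0 and 54.0 CPM with sgEV. It differed between the guides by -0.54 ± 0.07 (adjusted p 0.0344).

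IGF1, the insulin-like growth factor, was raised with both guides. It went from 10.9 and 10.1 CPM with sgEV to 83.9 and 81.4 CPM with guide 1 and to 59.8 and 56.9 CPM with guide 5. Guide 5 therefore reached 70.8% of the guide 1 level (log2 difference -0.50 ± 0.06, adjusted p 0.0269). The log2 values against sgEV were 2.98 for guide 1 and 2.47 for guide 5.

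**Figure D3:**
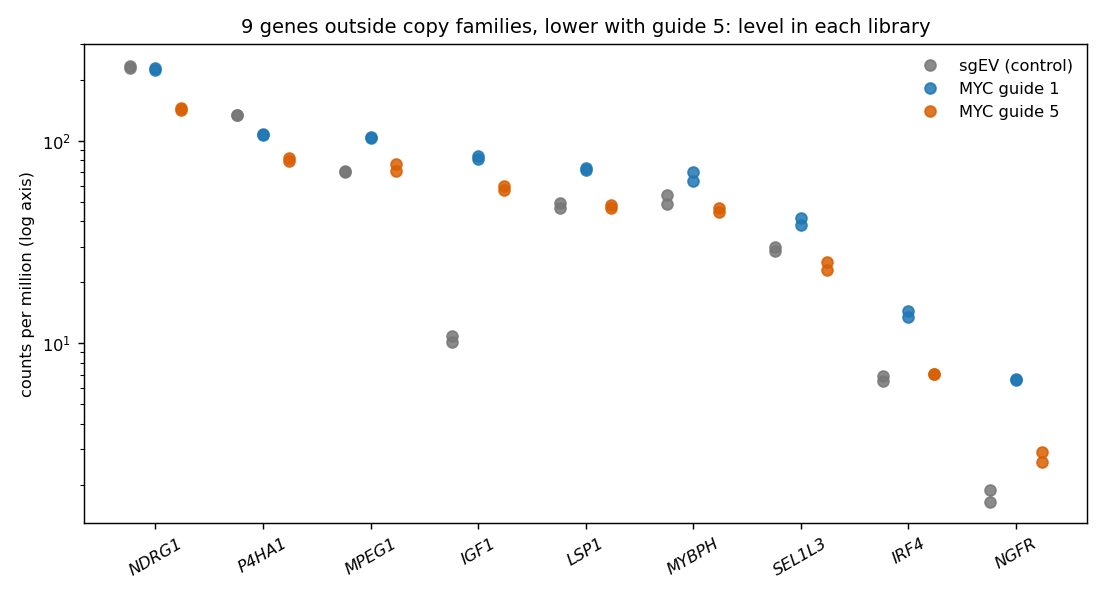
Level of the 9 called genes outside copy families in CPM (vertical log axis), 1 point a library, for sgEV (grey), guide 1 (blue) and guide 5 (orange). In each gene both guide 5 points lie under both guide 1 points; they lie above both sgEV points for IGF1, NGFR and IRF4, and below both for NDRG1, P4HA1, SEL1L3 and MYBPH.

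A fit without 1 guide 5 library takes its spread from the close guide 1 pair alone, so it is no check of the calls. The fit of all 6 libraries also draws its spread from the sgEV pair, which lay closer together than the guide 5 pair. The 9 calls held in that 6-library fit (adjusted p at most 0.0115) and with an offset for transcript length (at most 0.00408). They did not hold with spike-in scaling (adjusted p 0.115 to 0.993) or without guide 1 library 2 (0.0685 to 0.547), and without guide 1 library 1 only NDRG1, SEL1L3 and IRF4 passed. P4HA1 also missed the threshold with no low-count filter (adjusted p up to 0.0543), and NGFR and P4HA1 without robust estimation (up to 0.0622). Of the other tools, DESeq2 did not call IRF4 and NGFR, and limma on the deposited log2 values called NDRG1, LSP1, IRF4 and NGFR alone. In each of these fits the 9 values were below 0.

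**Figure D4:**
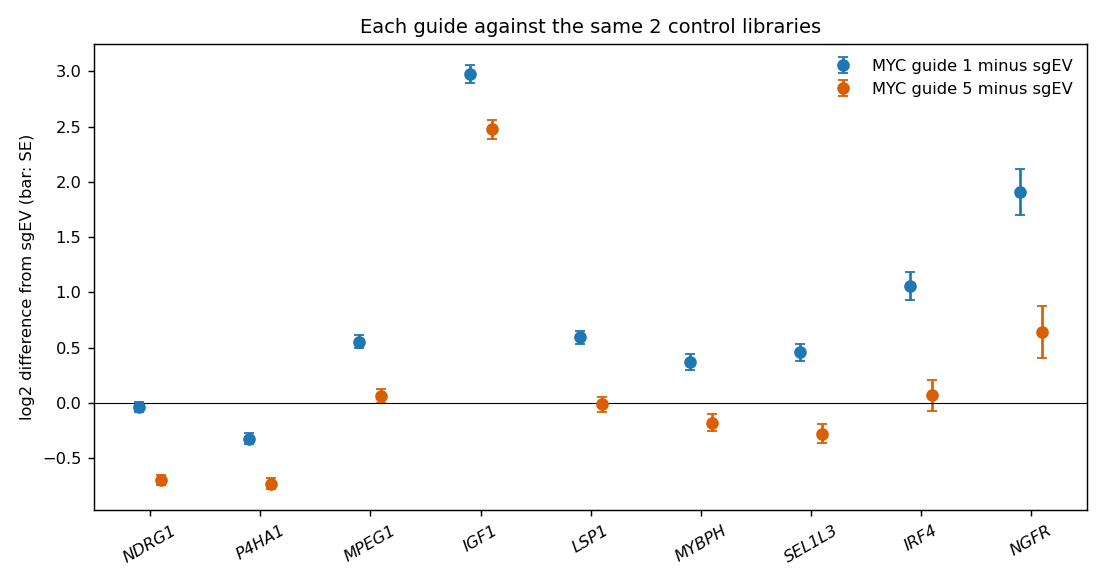
Log2 difference from sgEV (vertical axis, bars are SE) for guide 1 (blue) and guide 5 (orange) in the same 9 genes; both guides are set against the same 2 control libraries. Guide 1 lies near 0 for NDRG1 and above 0 for IRF4, LSP1 and MPEG1, where guide 5 lies near 0; IGF1 is raised to 2.98 and 2.47.

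The hypoxia-response list holds both NDRG1 and P4HA1. Cells answer low oxygen by stabilising HIF transcription factors, which bind the core ACGTG and raise genes of glycolysis, mitochondrial turnover and oxygen sensing. Of 17 members tested, none was higher and 2 were lower with guide 5 (0.110% of all genes were lower), and 14 of 17 differences were below 0. Their median was -0.14, against 0.0022 over all genes, of which 49.2% were below 0. BNIP3 and BNIP3L, which mark mitochondria for removal, and EGLN1, the oxygen-sensing prolyl hydroxylase, came next by p and are named after their values were seen. BNIP3 gave 48.5 and 51.3 CPM with guide 1 and 37.8 and 38.4 CPM with guide 5 (log2 -0.39, adjusted p 0.106). BNIP3L gave 187 and 177 CPM with guide 1 and 148 and 150.0 CPM with guide 5 (log2 -0.29, adjusted p 0.124). EGLN1 gave 76.0 and 70.8 CPM against 59.1 and 58.0 CPM (log2 -0.32, adjusted p 0.179). None of these 3 pairs of groups overlapped, which adds nothing for genes picked by p. Over all genes, guide 5 lay below guide 1 without overlap in 19.3%. More genes were called lower over all genes with all 6 libraries in the fit (46 of 13948) and with the length offset (65 of 12344). In each of those fits 5 members were lower: NDRG1, P4HA1, BNIP3, BNIP3L and EGLN1. With spike-in scaling, or without guide 1 library 2, none was. VEGFA, the vascular growth factor that hypoxia raises, lay at 98.2 and 91.7 CPM with sgEV, 23.8 and 23.6 CPM with guide 1 and 20.4 and 22.5 CPM with guide 5. It was far below control with both guides, and the log2 difference between them was -0.14 (95% interval -0.34 to 0.06, adjusted p 0.844). HIF1A itself gave -0.13 (adjusted p 0.832). Against sgEV, 2 members were higher and 7 lower with guide 1 (median -0.21), and none was higher and 10 lower with guide 5 (median -0.39), where 16.0% and 15.5% of all genes were lower.

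Among glycolysis genes, none of 24 passed between the guides, and 20 were below 0 with a median of -0.09. ALDOC, an aldolase, was nearest to the threshold. It gave 155 and 157 CPM with sgEV, 89.1 and 97.4 CPM with guide 1 and 57.2 and 68.9 CPM with guide 5 (log2 -0.56, adjusted p 0.0586), and it was chosen after its values were seen. Against sgEV, 7 glycolysis genes were lower with guide 1 and 14 with guide 5, and 4 were higher with each. Over all genes, 16.0% and 15.5% were lower with guide 1 and guide 5, and 16.2% and 15.7% were higher.

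Promoters of the called genes were read for 4 sequences, known as the binding letters of MYC, ATF4, NF-Y and HIF. The windows are RefSeq's, from 250 bases before the start to 50 bases after it, in GRCh38.p14, which is not the build of the counts. A window was at hand for 10 of the 15 lower genes, 1 of the 6 higher genes and 9742 of the 13633 tested. None was at hand for NDRG1, LSP1, MPEG1 and NGFR, so their promoters were not read. The 10 include GOLGA8K, SERF1A, C21orf33, NCF1 and ANKHD1-EIF4EBP3, whose counts are uncertain. The E-box CACGTG was in none of the 10 and in 10.4% of all windows. The ATF4 element TTGCATCA was in none of the 10 and in 0.482% of all, and CCAAT was in 3 of the 10 (30%) and in 37% of all. The HIF core ACGTG, added after the results were seen, was in 2 of the 10 (20%) and in 27.1% of all. Both strands were read, and every CACGTG also holds ACGTG. A match is only a run of letters, and its absence says only that these letters are not in the window. The 2 windows with the core belong to P4HA1 and SEL1L3, and 29 bases around it are shown, on the strand of the gene, with the core or its reverse complement in capitals. For P4HA1 they lie at chr10:73096936-73096964 (minus strand) and the core begins 86 bases before the RefSeq start. For SEL1L3 they lie at chr4:25863684-25863712 (minus strand) and the core begins 134 bases before it.
P4HA1: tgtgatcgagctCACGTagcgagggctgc
SEL1L3: gaaacatccagaACGTGccgcgaaccagc

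Most genes of the monocyte and macrophage list were higher than sgEV with each guide, and 1 was called between the guides. Of 28 monocyte and macrophage genes tested, 1 was lower with guide 5, none was higher, and 24 differences were below 0 (median -0.13). The called member was NCF1, a subunit of the phagocyte oxidase. It gave 54.1 and 53.4 CPM with guide 1, 36.0 and 38.4 CPM with guide 5 and 29.2 and 31.4 CPM with sgEV (log2 difference -0.53 ± 0.07, adjusted p 0.0341). NCF1 has near-identical pseudogene copies, so its reads cannot be told apart with certainty. NCF1B, one such copy, gave -0.60 (adjusted p 0.0717). LYZ, lysozyme, rose from 159 and 158 CPM with sgEV to 3707 and 3726 CPM with guide 1 and 3383 and 3486 CPM with guide 5, and the guides differed by -0.11 (adjusted p 0.813). Next by p were integrin chains. ITGAX gave 27.4 and 27.8 CPM with guide 1 and 22.3 and 18.8 CPM with guide 5 (log2 -0.42, adjusted p 0.242). ITGAM gave 12.1 and 12.8 CPM against 9.51 and 8.21 CPM (log2 -0.48, adjusted p 0.350). Neither pair of groups overlapped, which adds nothing for genes picked by p. Over all genes, guide 5 lay below guide 1 without overlap in 19.3%. CYBB, the catalytic subunit of the phagocyte oxidase, lay the other way, with 10.5 and 9.62 CPM against 12.8 and 13.0 CPM (log2 0.36, adjusted p 0.559). Against sgEV, 21 members were higher and 3 lower with guide 1 (median 0.81), and 20 higher and 4 lower with guide 5 (median 0.61). Over all genes, 16.2% were higher and 16.0% lower with guide 1, and 15.7% higher and 15.5% lower with guide 5. In bulk RNA, fewer cells of a kind and less RNA per cell cannot be told apart.

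The MHC class II list, which covers the molecules that present antigen to helper T cells, had the lowest median of the lists with at least 10 members tested. None of its 13 members passed, 10 were below 0, and the median log2 difference was -0.33. HLA-DRA, the class II alpha chain, gave 6.82 and 7.12 CPM with sgEV, 25.0 and 26.2 CPM with guide 1 and 13.7 and 17.4 CPM with guide 5 (log2 -0.72, adjusted p 0.0586). CD74, the invariant chain, gave 395 and 392 CPM with guide 1 and 334 and 332 CPM with guide 5 (log2 -0.24, adjusted p 0.196). CIITA, the factor that switches class II genes on, gave 5.99 and 5.88 CPM with guide 1 and 4.76 and 3.74 CPM with guide 5 (log2 -0.48, adjusted p 0.658). In each of these 3 genes, named after their values were seen, the guide groups did not overlap and sgEV was lowest. Over all genes, guide 5 lay below guide 1 without overlap in 19.3%. The HLA genes are a polymorphic family whose reads the counting could split. HLA-DRA and CD74 were called with all 6 libraries in the fit and with the length offset. Those fits also called more genes lower over all genes (46 of 13948 and 65 of 12344). With limma on the deposited log2 values the list's median was -0.16.

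Of 29 cytokine and growth factor receptors none passed, 26 differences were below 0 and 3 above, and the median was -0.11. CCR1, a chemokine receptor, gave 111 and 104 CPM with guide 1 against 90.8 and 82.4 CPM with guide 5 (log2 -0.31, adjusted p 0.218), and CSF3R, the receptor for granulocyte colony-stimulating factor, gave 90.0 and 87.7 CPM against 77.2 and 76.5 CPM (log2 -0.21, adjusted p 0.450). Against sgEV, 18 receptors were higher and 3 lower with guide 1 (median 0.27), and 11 higher and 3 lower with guide 5 (median 0.13), where 16.2% and 15.7% of all genes were higher and 16.0% and 15.5% lower. With spike-in scaling the median between the guides was -0.05. Of 23 myeloid transcription factors, IRF4 alone passed and 18 were below 0 (median -0.05). Next by p was EGR1, an early response factor (log2 -0.18, adjusted p 0.576).

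The list of genes that MYC activates held 1 called member, NDRG1, a gene better known for repression by MYC. Apart from NDRG1, no member was called in either direction. Of 56 tested, none was higher and 1 was lower, and 46 differences were above 0 (median 0.07). SLC19A1, the folate carrier, had the smallest p of the rest. It gave 60.1 and 60.5 CPM with guide 1, 70.9 and 70.1 CPM with guide 5 and 61.4 and 61.0 CPM with sgEV (log2 0.23, adjusted p 0.375). CAD, which begins pyrimidine synthesis, gave 126 and 127 CPM with guide 1 and 147 and 141 CPM with guide 5 (log2 0.19, adjusted p 0.479). In both genes the guide groups did not overlap. Over all genes, guide 5 lay above guide 1 without overlap in 17.2%. Against sgEV, 3 members were higher and 21 lower with guide 1 (median -0.12), and 8 higher and 16 lower with guide 5 (median -0.09). Over all genes, 16.2% were higher and 16.0% lower with guide 1, and 15.7% higher and 15.5% lower with guide 5. Some members were called higher with guide 5 when either guide 5 library was left out, but the spread in those fits comes from the close guide 1 pair alone. Calls over all genes rose in those fits as well.

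The ATF4 stress response, which drives amino acid synthesis and uptake, was far below sgEV with both guides. Of 28 members tested against sgEV, 27 were lower with guide 1 and 28 with guide 5, with medians of -1.84 and -1.87. Over all genes, 16.0% and 15.5% were lower than sgEV with guide 1 and guide 5. Between the guides none of 27 passed, and the median was 0.04. Without guide 1 library 1 or without guide 5 library 2 that median was -0.00. ASNS, which makes asparagine, gave 189.8 and 188 CPM with sgEV, 17.1 and 18.2 CPM with guide 1 and 17.9 and 20.7 CPM with guide 5 (log2 0.13 between the guides, 95% interval -0.11 to 0.37, adjusted p 0.892). PHGDH, the first enzyme of serine synthesis, gave 415 and 421 CPM, then 28.4 and 31.0 CPM, then 33.5 and 36.9 CPM in the same order (log2 0.25, 95% interval 0.05 to 0.44, adjusted p 0.598). ATF5, a factor of the same response, lay lower with guide 5, at 188 and 185 CPM with guide 1 against 144 and 154 CPM (log2 -0.31, adjusted p 0.0941). Cholesterol synthesis genes numbered 23 of 24 lower than sgEV with each guide, and none differed between the guides (median -0.05). Proteasome genes were above 0 in 29 of 31 (median 0.06), with none called, and that median was 0.01 without guide 5 library 2. Nuclear genes of the respiratory chain were above 0 in 39 of 46 (median 0.06), and there the sign turned without guide 5 library 2, to -0.04. With the length offset the medians were 0.05 and 0.04.

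Other groups held no called member either. Cytosolic ribosomal proteins had 63 of 87 lower than sgEV with guide 1 and 60 with guide 5, and a median of 0.01 between the guides. Early myeloid granule genes, the products of immature myeloid cells, had 10 of 14 higher than sgEV with each guide and a median of 0.05 between them. Over all genes, 16.0% and 15.5% were lower than sgEV with guide 1 and guide 5, and 16.2% and 15.7% were higher. DNA replication (47 genes), mitosis (43) and ribosome assembly (51) had medians of 0.03, 0.01 and 0.06. Targets of p53 (32) and interferon-stimulated genes (38) had medians of -0.07 and -0.04. Each of these medians lay within 0.1 of that of all genes.

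**Figure D5:**
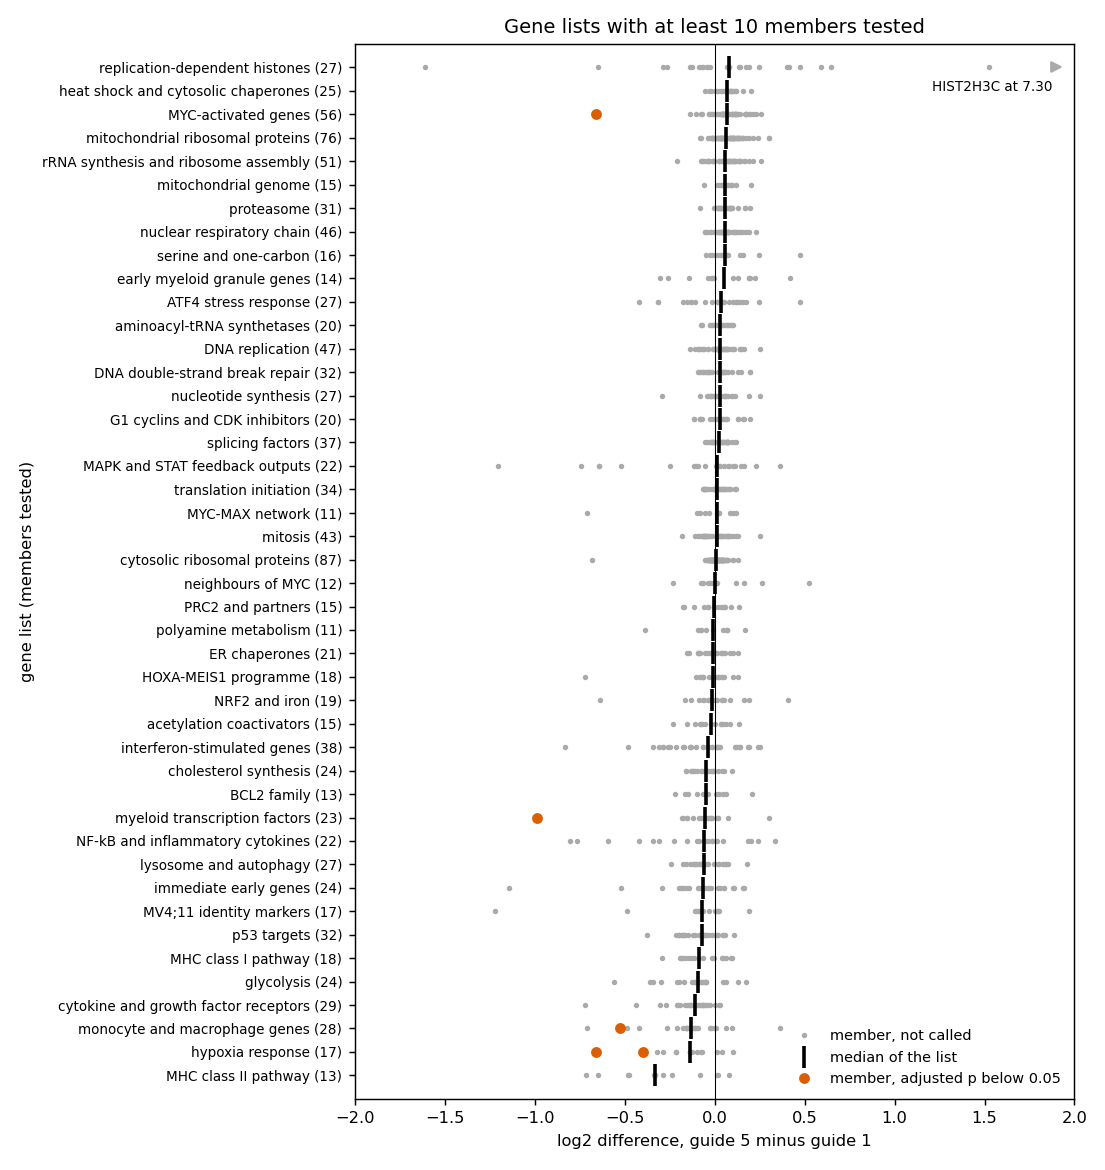
Log2 difference, guide 5 minus guide 1 (horizontal axis), of the tested members (grey points) of the 44 gene lists with at least 10 members tested, with the list's median (black bar) and called members in orange; 1 point lies beyond the right edge and its value is written beside it. Medians run from -0.33 for MHC class II genes to 0.08 for replication-dependent histones.

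Called members were found in 4 of the 49 lists, those of hypoxia response, MYC-activated genes, monocyte and macrophage genes and myeloid transcription factors. In the MYC-activated list the called member was NDRG1 alone, a gene better known for repression by MYC. Each library was also given the median, over a list's members, of the log2 level relative to sgEV. By that median both guide 5 libraries lay below both guide 1 libraries in 13 lists, above them in 8, and overlapped in 28. Its order can differ from the sign of the median difference between the guides. The ATF4 list counts as below with a median difference of 0.04, and the BCL2 family as above with -0.05. Over single genes the shares were 19.3% below and 17.2% above, so these counts of lists say little on their own. Of the markers of other cell types, 15 of 50 were matched and 10 tested, and none was called. Summed over the matched members, B cell markers reached 2.20 to 3.41 CPM with guide 1 and 2.77 to 3.96 CPM with guide 5, and eosinophil and mast cell markers reached 4.20 to 4.27 CPM and 4.19 to 5.26 CPM. T and NK markers rested on NKG7 alone, at 57.6 and 58.2 CPM with guide 1 and 52.4 and 60.9 CPM with guide 5. CD3D, CD3E and CD2 were not analysed here. Stromal and epithelial markers summed to 313 to 314 CPM with guide 1 and 288 to 304 CPM with guide 5, nearly all from PECAM1, an adhesion molecule that monocytes share with endothelium. COL1A1 and EPCAM were not analysed here. Erythroid and megakaryocyte markers summed to 44.9 to 47.0 CPM with guide 1 and 33.3 to 33.7 CPM with guide 5, mostly from ITGA2B, the platelet integrin chain, at 28.0 and 25.2 CPM against 17.8 and 17.6 CPM (log2 -0.59, adjusted p 0.0586). Their part in the results was not tested.

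Values just outside the threshold were also mostly lower with guide 5. Of 29 genes with an adjusted p from 0.05 to below 0.1, 22 were lower and 7 higher. Both directions include rows of uncertain counting, with clone names, near-identical copies or read-through names. RP11-544M22.13, NCF1B and DYX1C1-CCPG1 are such rows among the lower, and CTD-3126B10.1 and ARL2-SNX15 among the higher. Of the 29, the lower ones, named after their values were seen, included EMP2, CECR1, SDC2, CCR6, ALOX5AP and RNASE6. CECR1, an adenosine deaminase secreted by monocytes, gave 157 and 153 CPM with guide 1 and 122 and 117 CPM with guide 5 (log2 -0.37, adjusted p 0.0571). SDC2, a cell-surface proteoglycan, gave 164 and 166 CPM against 131 and 128 CPM (log2 -0.34, adjusted p 0.0586). ALOX5AP, which supplies arachidonic acid for leukotriene synthesis, gave 67.3 and 69.4 CPM against 49.1 and 53.6 CPM (log2 -0.41, adjusted p 0.0789). The higher ones included ABCB10, a mitochondrial transporter of erythroid cells, at 235 and 229 CPM against 284 and 293 CPM (log2 0.32, adjusted p 0.0586). ASS1, which makes argininosuccinate from citrulline and aspartate, fell from 581 and 587 CPM with sgEV to 94.3 and 96.4 CPM with guide 1 and 118 and 122 CPM with guide 5 (log2 0.34 between the guides, adjusted p 0.0744). In each of these 5 genes the guide groups did not overlap. The genes were picked with their values known, so this adds nothing to the test. Over all genes, guide 5 lay below guide 1 without overlap in 19.3% and above it in 17.2%.

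Large fitted differences were found in genes whose reads can be shared between copies, and in 2 clone-named rows described after them. GOLGA8K and GOLGA8T are golgin genes of 1 family. GOLGA8K gave 8.40 and 7.55 CPM with guide 1 and 0.142 and 0.0720 CPM with guide 5 (log2 -6.10, adjusted p 0.000300), while GOLGA8T gave 0.344 and 0 CPM with guide 1 and 9.09 and 7.27 CPM with guide 5 (log2 5.53, adjusted p 0.00368). The sgEV libraries disagreed with each other on the pair, with 0.0750 and 5.84 CPM for GOLGA8K and 8.47 and 4.12 CPM for GOLGA8T. With all 6 libraries in the fit neither was called (adjusted p 0.600 and 0.0596). SERF1A gave 4.75 and 3.67 CPM with guide 1 and 0 and 0.216 CPM with guide 5 (log2 -5.18, adjusted p 0.0145), and its copy SERF1B gave 3.72 and 4.34 CPM against 6.89 and 9.65 CPM (log2 1.04, adjusted p 0.131). These values cannot separate a change of 1 gene from reads assigned to another copy.

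Clone-named rows made up most of the genes higher with guide 5. CH507-513H4.3, CH507-513H4.4 and CH507-513H4.6 had nearly the same counts as each other in each guide 5 library, and their reads cannot be told apart here. In guide 1 library 2 they differed, with 9296 and 9315 estimated counts for CH507-513H4.3 and CH507-513H4.4 and 11237 for CH507-513H4.6. CH507-513H4.6 gave 785 and 750.3 CPM with guide 1, 1397 and 1217 CPM with guide 5 and 804 and 764 CPM with sgEV, 1.71 times the guide 1 level (log2 0.77, adjusted p 0.00702). CH507-513H4.3 and CH507-513H4.4 gave log2 differences of 0.91 each (adjusted p 0.0371 and 0.0495), and those calls were lost with all 6 libraries in the fit. RP11-373L24.1 had no count in the sgEV and guide 1 libraries and 4.40 and 2.38 CPM with guide 5, which is at least 33.3-fold higher when guide 1 is set to 3 counts in all (adjusted p 0.0209). CH507-24F1.2 had no count with guide 5 and 7.85 and 9.95 CPM with guide 1, at least 83.2-fold lower when guide 5 is set to 3 counts in all; sgEV gave 1.57 and 4.20 CPM (adjusted p 0.000640). RP11-673C5.1 gave 1.72 and 1.20 CPM with guide 1 and 5.18 and 5.11 CPM with guide 5 (log2 1.82, adjusted p 0.0338). C21orf33, a gene with a near-identical copy, gave 11.1 and 7.81 CPM with guide 1 and 2.27 and 2.59 CPM with guide 5 (log2 -1.95, adjusted p 0.0161). The read-through ANKHD1-EIF4EBP3 gave 64.7 and 55.7 CPM against 38.2 and 34.7 CPM (log2 -0.72, adjusted p 0.0269), with the sgEV libraries at 53.2 and 31.0 CPM.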

How the data were processed

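The authors deposited expected counts (fractional estimates for each gene) and log2 normalised values for 2 libraries in each of 3 groups. RSEM, DESeq and hg19 are named in the submitters' processing notes. For versions, aligner, annotation and the making of the log2 values: not given in the sources used here. Columns were matched to samples by target, guide number and replicate number. Of 15081 rows, 56 were spike-ins kept out of scaling and testing, which left 15025 gene rows, 18 of them with a calendar date in place of a symbol.

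Counts were rounded, filtered with filterByExpr, scaled by TMM and tested with edgeR 4.0.16 in R 4.3.3 (glmQLFit robust, glmQLFTest) over the 4 guide libraries, called at a Benjamini-Hochberg adjusted p below 0.05. CPM and each guide against sgEV came from a fit of the 6 libraries in 3 groups. Alternatives were other scalings, filters and library sets, DESeq2 1.42.0, limma 3.58.1 and, added after the data were seen, a length offset (a smooth of each library's deviation on log2 transcript length, from GENCODE). The test was tested on simulated data.

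The members and the 49 gene lists were chosen with earlier results of these data known. The named genes are MYC and EZH2, up to 12 called genes per direction by size with at least 50 scaled counts and no overlap of the libraries, the 6 per direction with the smallest p, up to 4 called members per list, and the MYC-MAX network and neighbours of MYC. No sample was left out. With 2 libraries per group, no exact test over libraries can reach the threshold, so tests rest on the fit across genes.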

Additional observations from a re-analysis of the deposited data

How the results depend on the processing

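The numbers of genes called moved by more than 1.5 times under several settings, always with guide 5 against guide 1. With all 6 libraries in the fit, 11 genes were higher and 46 lower, 5 and 9 of them at least 2-fold. Spike-in scaling gave 3 higher and 4 lower, and moved the median of all genes to 0.06. DESeq2 gave 13 higher, 6 of them at least 2-fold, and 21 lower. A mean of at least 50 counts left 1 gene at least 2-fold higher, and limma on the deposited log2 values left 3 at least 2-fold lower. The length offset, chosen after the data were seen, gave 19 higher and 65 lower over 12344 genes with a length. Lengths were found for 90.5% of genes tested but for 14 of the 21 called (66.7%), so that check is void for the called genes as a set, though the 9 outside copy families all had one. Leaving out 1 library gave 2 to 482 higher and 3 to 551 lower, and at least 2-fold 2 to 43 higher and 3 to 64 lower.

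With the replicate number as a block, 27 genes were higher and 75 lower, 12 and 13 of them at least 2-fold. The titles give the numbers but nothing says that they mark a shared culture or day. Deviations of same-numbered libraries correlated at 0.58 over 7998 genes, from 2 pairs. All 21 genes were called in that fit too.

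None of the 21 called genes changed sign under the alternatives in which it was tested; 7 had no length for the offset, and 3 were removed by the mean of 50 counts. With no low-count filter 4 were higher and 14 lower, with relative log expression scaling 4 and 15, and without robust estimation 6 and 13. The 95% interval stays inside 2-fold for 86.0% of genes, and for the others depth and spread between libraries do not bound the difference that closely.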
